A study of Mus musculus with 8 samples.

Results

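Transcripts of the nuclear-encoded subunits of respiratory complexes II, III, IV and V were followed in the gastrocnemius, a mostly fast calf muscle, of Bcat2 knockout and wild-type mice. The members are 41 genes chosen by name from the complexes' subunits, with cytochrome c (Cycs) placed with complex III and Ndufa4 with complex IV. A row was found for 40 of them, among 38741 gene symbols in the table: 4 genes of complex II, 10 of complex III, 11 of complex IV and 15 of complex V. Cox4i1 was not analysed here. The 37 rows of the mitochondrial chromosome, which carries further subunits of complexes III to V, were listed at 0 in every mouse and were not used.

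The knockouts were 4 male mice homozygous for the Bcat2tm1.2Clyn allele, 10 to 11 weeks old and weighing 15 to 24 g, and the controls were 4 male wild-type mice, 9 to 10 weeks old and weighing 22 to 25 g. Bcat2 encodes BCATm, the mitochondrial aminotransferase that starts the breakdown of leucine, isoleucine and valine. All mice had a C57BL6 background and could choose between chow and a purified diet without branched-chain amino acids, offered to their dams as well. Messenger RNA was sequenced from the whole muscle and given as FPKM, fragment counts divided by exon length and by the library's mapped total, so that genes can be compared per length. The mice are called KO5 to KO8 and WT1 to WT4, and lists of values follow that order.

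Complex II (succinate dehydrogenase) passes electrons from succinate to ubiquinone, complex III passes them on to cytochrome c, and complex IV (cytochrome c oxidase) passes them to oxygen. Complexes III and IV pump protons out of the mitochondrial matrix, and complex V (ATP synthase) lets them return and makes ATP. Each complex joins a few large catalytic or core proteins to many small accessory proteins, and muscle uses its own isoforms of some complex IV subunits. Muscle rich in slow and oxidative fibres holds more of these complexes than fast glycolytic muscle.

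Bcat2 stood at 2.89, 5.26, 2.91 and 2.09 FPKM in knockouts, against 83.0, 42.7, 46.0 and 41.2 FPKM in wild type, and differed by -3.65 in log2(FPKM + 1) (SE 0.28, limma adjusted p = 0.00245). The muscle markers Ckm, Mylpf, Myh4, Tnnt3 and Pygm were abundant in every mouse, with summed levels of 51094 to 83452 FPKM in knockouts and 50961 to 60381 FPKM in wild type. Acta1 was not analysed here. FPKM summed to between 691168 and 896190 per library, and depth relative to WT2, read from the smallest values, ran from 0.548 to 1.21 in knockouts and from 0.437 to 1.23 in wild type. The sum of 8 adipocyte markers ran from 1329.5 to 8309 FPKM in knockouts and from 616 to 15774 FPKM in wild type, with KO6 and WT1 far above the other mice of their genotypes. Keratinocyte markers reached 464 FPKM in KO6 and at most 2.64 FPKM in the other 7 mice. The sum of 10 slow fibre markers ran from 505 to 1745 FPKM in knockouts and from 259.7 to 1319 FPKM in wild type, so the genotypes overlapped. In whole muscle, fewer cells of a type and less RNA per cell cannot be told apart.

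The 40 transcripts were among the most abundant in muscle, the lowest at percentile 96.5 of the mean level of the 11118 tested genes (mean of at least 1 FPKM), with means from 198 FPKM (Sdha) to 13603 FPKM (Cox7b). No member passed the threshold in knockouts (0 of 40, limma-trend on log2(FPKM + 1), Benjamini-Hochberg adjusted p under 0.05 over all tested genes), where 0.027% of all tested genes did (0.00899% higher and 0.018% lower). Before adjustment, with p under 0.05, 5 members (12.5%) were higher in knockouts, where 2.99% of all tested genes were, and 4 members (10%) were lower, where 7.33% of all tested genes were. In either direction that is 9 of 40 members, where it was 10.3% of all tested genes. The 5 with higher values were Cox6c, Cox8b and Ndufa4 of complex IV, Atp5l of complex V and Uqcrq of complex III. The 4 with lower values were Sdha and Sdhc of complex II and Uqcrc1 and Uqcrc2 of complex III. The values of the genotypes did not overlap in 8 members (20%), 4 higher and 4 lower in knockouts, where 6.75% of all tested genes did not overlap (2.08% higher and 4.68% lower).

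The median difference over the members was -0.0023 in log2(FPKM + 1), knockout minus wild type, and that of all tested genes was -0.12. Scaling by median ratios moved the median of all tested genes to -0.0020, so medians of complexes are given relative to that of all tested genes. At the same unadjusted limit, 3 members were then higher and 1 was lower, against 750 and 574 of all tested genes. After quantile normalization 2 members were higher and 12 were lower, against 610 and 649 of all tested genes. As deposited, those counts over all tested genes were 332 higher and 815 lower. With WT1 and KO6, whose adipocyte transcripts were raised, left out, 0 members were higher and 3 were lower, against 346 and 753 of all tested genes. Leaving out 1 mouse gave 2 higher members without WT1 (496 of all tested genes), 3 without WT3 (204), 1 without KO5 (203), 2 without KO6 (228) and 1 without KO8 (370). Without KO5, 7 members were lower (542 of all tested genes). In the authors' deposited table, 34 of the 40 members carry the authors' mark for p under 0.05, where 20.2% of all tested genes do, and 30 carry that for p under 0.001, where 10.8% do. The genotypes overlapped in 22 of the 30 members so marked in the authors' deposited table. In the limma fit the smallest adjusted p of any member was that of Sdha, limma adjusted p = 0.48.

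**Figure D1:**
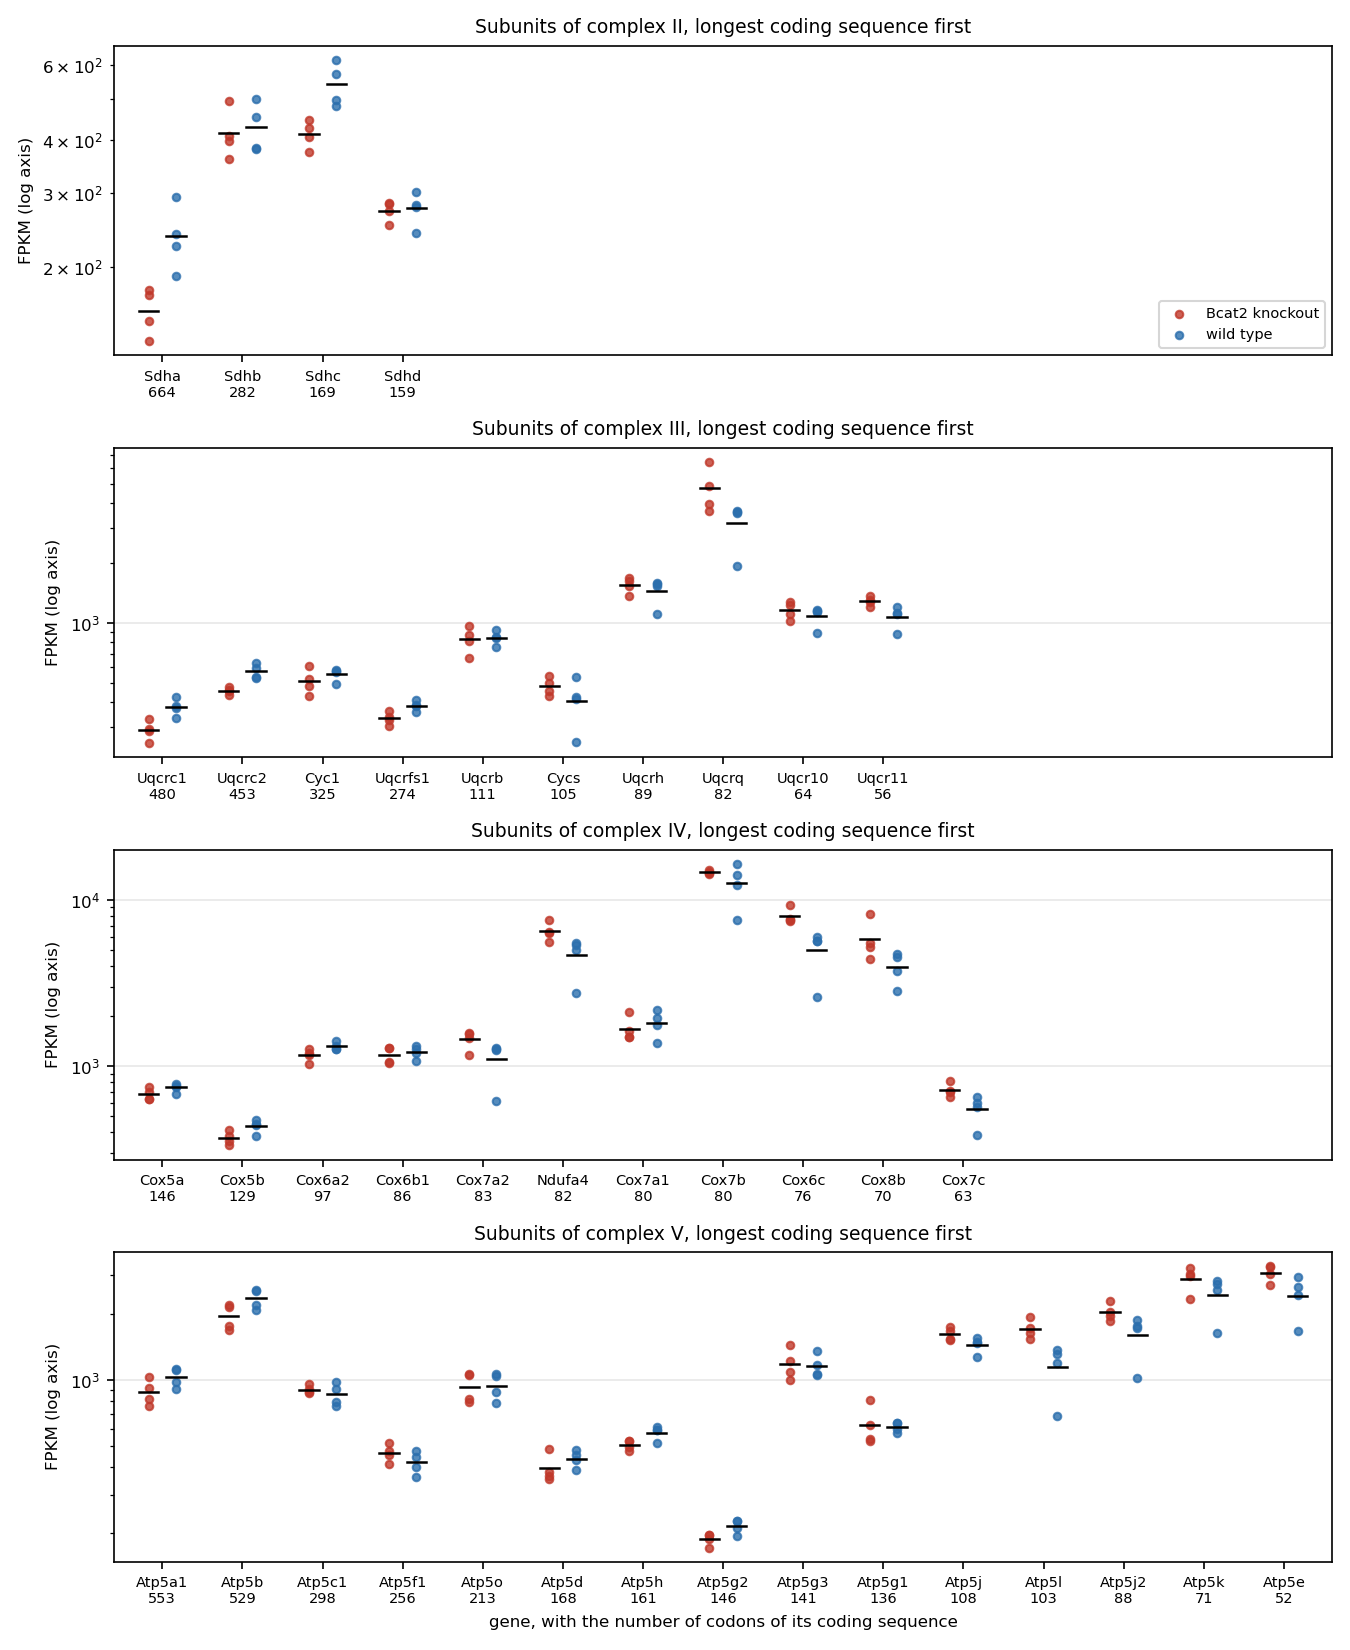
Level of each subunit transcript in FPKM (log axis) in 4 Bcat2 knockout mice (red) and 4 wild-type mice (blue), by complex, with genes ordered from the longest to the shortest coding sequence and the number of codons under each name. Points are mice and bars are means. Sdha, Sdhc, Uqcrc1 and Uqcrc2 lie lower in all 4 knockouts than in any wild-type mouse, and Uqcr11, Ndufa4, Cox6c and Atp5l lie higher.

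Complex II had the lowest median difference of the 4 complexes, -0.10 relative to all tested genes. All 4 differences lay below 0 as deposited, with 2 of them above the median of all tested genes, and Sdhb and Sdhd stood at 0.10 and 0.14 with median-ratio scaling. Its summed level was 1299, 1279, 1235 and 1220.3 FPKM in knockouts, against 1458, 1352, 1534 and 1589 FPKM in wild type, and the genotypes did not overlap as deposited. The median deviation of the 4 members from the mean of the 8 mice, relative to all tested genes of the mouse, did overlap. It ran from -0.25 to 0.23 in knockouts and from -0.04 to 0.29 in wild type. Sdha (mm10, ENSMUSG00000021577, chromosome 13, 74322254 to 74350280), the flavoprotein that oxidises succinate, stood at 149, 172, 177 and 134 FPKM in knockouts, against 224, 190.3, 293 and 240.2 FPKM in wild type. The lowest wild-type mouse was WT2, still above the highest knockout, KO7. The difference was -0.57 (SE 0.17, 95% interval -0.95 to -0.20, unadjusted p = 0.00763, limma adjusted p = 0.48, exact permutation p = 0.0286). That permutation p is the smallest that 4 against 4 mice allow. Sdhc (ENSMUSG00000058076, chromosome 1, 171127165 to 171150603), a membrane anchor of the complex, stood at 374, 426, 446 and 406 FPKM in knockouts, against 479.8, 498, 619 and 571 FPKM in wild type. It too was lower in 4 of 4 knockouts than in every wild-type mouse, with a difference of -0.39 (SE 0.13, limma adjusted p = 0.48). With median-ratio scaling the differences of Sdha and Sdhc were -0.43 and -0.24, and after quantile normalization -0.65 and -0.60. Without WT3, the highest mouse in both genes, they were -0.47 and -0.32.

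In the other two subunits the genotypes overlapped. Sdhb, the iron-sulfur subunit, stood at 494, 397, 361 and 409 FPKM in knockouts and 452, 383, 381 and 499 FPKM in wild type. Sdhd, the second membrane anchor, stood at 282, 284, 251 and 272 FPKM in knockouts and 302, 280.5, 242 and 278 FPKM in wild type. The differences were -0.05 for Sdhb (95% interval -0.38 to 0.29) and -0.01 for Sdhd (95% interval -0.28 to 0.25). After quantile normalization the median difference of complex II relative to all tested genes was -0.38.

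In complex III the large core proteins had lower values in knockouts and some small subunits had higher ones. Uqcrc1 (ENSMUSG00000025651, chromosome 9, 108936648 to 108949640), a core protein of 480 codons, stood at 329, 249, 293 and 289 FPKM in knockouts, against 376, 335, 426 and 382 FPKM in wild type. Uqcrc2 (ENSMUSG00000030884, chromosome 7, 120635176 to 120659478), the other core protein, stood at 476, 462, 434 and 455 FPKM in knockouts, against 631, 532, 534 and 596 FPKM in wild type. In both genes all 4 knockouts were lower than every wild-type mouse in FPKM as deposited. The differences were -0.39 for Uqcrc1 (SE 0.13, limma adjusted p = 0.48) and -0.32 for Uqcrc2 (SE 0.11, limma adjusted p = 0.48). With median-ratio scaling they were -0.24 (SE 0.18) and -0.17 (SE 0.17), and after quantile normalization -0.57 and -0.54. Without WT3 they were -0.33 and -0.36. Exons of Uqcrc2 overlap those of Pdzd9 on the opposite strand, and the library kit does not mark strand, so reads of that stretch cannot be told apart. Uqcrfs1, the Rieske iron-sulfur protein, stood at 362, 336, 303 and 326 FPKM in knockouts, against 385, 358, 387 and 409.5 FPKM in wild type. KO5 lay just above WT2, and the other 3 knockouts lay below every wild-type mouse (difference -0.22, SE 0.11). With median-ratio scaling the difference of Uqcrfs1 was -0.07, and after quantile normalization -0.39.

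Among the small subunits, Uqcrq (ENSMUSG00000044894, chromosome 11, 53427922 to 53430831), the ubiquinone-binding protein of 82 codons, had the highest level of the complex. It stood at 6458, 3954, 3656 and 4892 FPKM in knockouts, against 3591, 3661, 1924 and 3554 FPKM in wild type. KO5 was the highest mouse and WT3 the lowest, and KO7 lay just below WT2. The difference of 0.59 (SE 0.26, limma adjusted p = 0.484, exact permutation p = 0.0571) was 0.36 without WT3. Uqcr11 (ENSMUSG00000020163, chromosome 10, 80402997 to 80406830), the smallest subunit of complex III with 56 codons, stood at 1309, 1272, 1199 and 1370.5 FPKM in knockouts, against 1128, 1198, 878 and 1109 FPKM in wild type. All 4 knockouts were higher than every wild-type mouse, although KO7 and WT2 were nearly equal. The difference of 0.26 (SE 0.12, limma adjusted p = 0.484) was 0.17 without WT3. Cycs, the electron carrier between complexes III and IV, stood at 500.4, 453, 431 and 544 FPKM in knockouts and 423, 415, 253 and 536 FPKM in wild type, with WT3 far below the other mice (difference 0.29, and 0.08 without WT3). Uqcrb, Uqcrh, Uqcr10 and Cyc1, the cytochrome c1 subunit, had overlapping genotypes and differences of -0.03, 0.11, 0.10 and -0.12. None of these 4 kept its sign under every scaling: Uqcrb stood at 0.12 and Cyc1 at 0.029 with median-ratio scaling, and Uqcrh at -0.064 and Uqcr10 at -0.084 after quantile normalization. Without WT3, Uqcrh stood at -0.014 and Uqcr10 at 0.0040.

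Complex IV had the highest median difference, 0.39 relative to all tested genes, but 0.12 without WT3, 0.08 with mice weighted by their spread and 0.07 after removal of a trend with transcript length and GC content. Cox6c (ENSMUSG00000014313, chromosome 15, 35925886 to 35938246), a small accessory subunit of 76 codons, had the largest difference of the 40 members. It stood at 7451, 7537, 7690.0 and 9339 FPKM in knockouts, against 5675, 5942, 2614 and 5656 FPKM in wild type. All 4 knockouts exceeded every wild-type mouse, and WT3 was far below the other 3 wild-type mice. The difference was 0.75 (SE 0.26, 95% interval 0.17 to 1.34, unadjusted p = 0.0176, limma adjusted p = 0.48, exact permutation p = 0.0286), and 0.47 without WT3. Ndufa4 (ENSMUSG00000029632, chromosome 6, 11900373 to 11907446), first described as a complex I protein and now placed in complex IV, stood at 5551, 6348, 6443 and 7526 FPKM in knockouts, against 5017, 5514, 2755 and 5319 FPKM in wild type. Again the genotypes did not overlap, with KO5 just above WT2 (difference 0.52, SE 0.22, limma adjusted p = 0.484).

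Cox8b (ENSMUSG00000025488, chromosome 7, 140898943 to 140900446), the muscle form of subunit 8, stood at 8159.7, 5197, 4393 and 5495 FPKM in knockouts, against 3731, 4534, 2819.9 and 4729 FPKM in wild type. KO5 was far above the other mice, and KO7 was below WT2 and WT4 (difference 0.55, SE 0.23, limma adjusted p = 0.48, exact permutation p = 0.0857). Without WT3 the difference of Cox8b was 0.39 and that of Ndufa4 was 0.28. Cox5b and Cox5a, subunits on the matrix side, had lower means in knockouts as deposited. With median-ratio scaling their differences were -0.09 and 0.02, and after quantile normalization -0.39 and -0.33. Cox5b stood at 409, 377, 353 and 332 FPKM in knockouts, against 438, 380.1, 471 and 445 FPKM in wild type. Cox5a stood at 751, 698, 628 and 632 FPKM in knockouts, against 780.0, 681, 748 and 760.3 FPKM in wild type. The genotypes overlapped in both, and the 95% intervals of -0.52 to 0.04 for Cox5b and -0.39 to 0.12 for Cox5a held 0. Cox7b, the most abundant member, Cox7c and Cox6b1 had overlapping genotypes and differences of 0.27, 0.40 and -0.06. Without WT3 the difference was 0.044 for Cox7b and 0.23 for Cox7c, and that of Cox6b1 was 0.094 with median-ratio scaling.

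In complex V the 2 large catalytic-head subunits had lower means in knockouts and the 5 members of at most 360 coding bases had higher ones. The median difference of its 15 members relative to all tested genes was 0.14, but -0.16 after quantile normalization. For complex III these medians were 0.15 and -0.13. Atp5b, the catalytic beta subunit, stood at 2205, 2159, 1694 and 1758 FPKM in knockouts, against 2583, 2088, 2195 and 2555 FPKM in wild type. Atp5a1, the alpha subunit, stood at 1036, 917, 819 and 762 FPKM in knockouts, against 1107, 979.6, 908 and 1121 FPKM in wild type. In both genes KO7 and KO8 lay below every wild-type mouse while KO5 and KO6 lay within the wild-type range, with differences of -0.27 (SE 0.13) and -0.22 (SE 0.13). With median-ratio scaling the differences of Atp5b and Atp5a1 were -0.12 (SE 0.15) and -0.07 (SE 0.16), and after quantile normalization -0.37 and -0.41. Atp5l (ENSMUSG00000038717, chromosome 9, 44913250 to 44920742), the g subunit of the membrane part, stood at 1941, 1641, 1543 and 1728 FPKM in knockouts, against 1197, 1363, 687 and 1319.8 FPKM in wild type. All 4 knockouts were higher than every wild-type mouse, and WT3 was again the lowest. The difference was 0.63 (SE 0.22, 95% interval 0.13 to 1.13, unadjusted p = 0.0193, limma adjusted p = 0.48), and 0.40 without WT3.

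Atp5j2, the f subunit, stood at 1857, 1956, 2044 and 2287 FPKM in knockouts, against 1734, 1767, 1016 and 1877 FPKM in wild type. Atp5e, the epsilon subunit of the central stalk and the shortest member with 52 codons, stood at 3029, 3274, 2714 and 3305 FPKM in knockouts, against 2429, 2942, 1677 and 2646 FPKM in wild type. In both, 3 of 4 knockouts exceeded every wild-type mouse, WT3 was lowest, and the 95% intervals of -0.07 to 0.84 for Atp5j2 and -0.03 to 0.77 for Atp5e held 0. Their differences were 0.38 and 0.37, and 0.18 and 0.20 without WT3. The remaining 7 subunits outside the proton channel (Atp5k, Atp5j, Atp5f1, Atp5c1, Atp5o, Atp5d and Atp5h) had overlapping genotypes and differences from -0.18 (Atp5h) to 0.27 (Atp5k), which was 0.089 without WT3. Median-ratio scaling turned the sign of Atp5o, and quantile normalization that of Atp5c1, Atp5f1 and Atp5j.

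Atp5g1, Atp5g2 and Atp5g3 encode the c subunit of the proton-conducting ring, and their proteins differ mainly in the part removed on import. Atp5g3 supplied 59.3 ± 1.08% of their summed FPKM in knockouts and 58.3 ± 3.81% in wild type (SD, n = 4 each). Atp5g1 supplied 31.0 ± 1.54% in knockouts and 30.8 ± 2.67% in wild type, and Atp5g2 9.65 ± 1.78% in knockouts and 10.9 ± 1.14% in wild type. The shares overlapped between the genotypes for all 3 genes. Levels were 1439.5, 1086, 999 and 1216 FPKM in knockouts and 1350.2, 1062, 1053 and 1170.4 FPKM in wild type for Atp5g3. For Atp5g1 they were 807, 536, 527 and 621 FPKM in knockouts and 571, 636, 598 and 634 FPKM in wild type. For Atp5g2 they were 188, 197, 197 and 172 FPKM in knockouts and 195, 227, 211 and 227 FPKM in wild type, with a difference of -0.19 (SE 0.12). The differences of Atp5g1 and Atp5g3 were 0.01 and 0.03 as deposited and -0.20 and -0.16 after quantile normalization. That of Atp5g2 was -0.04 with median-ratio scaling and -0.26 after quantile normalization.

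**Figure D2:**
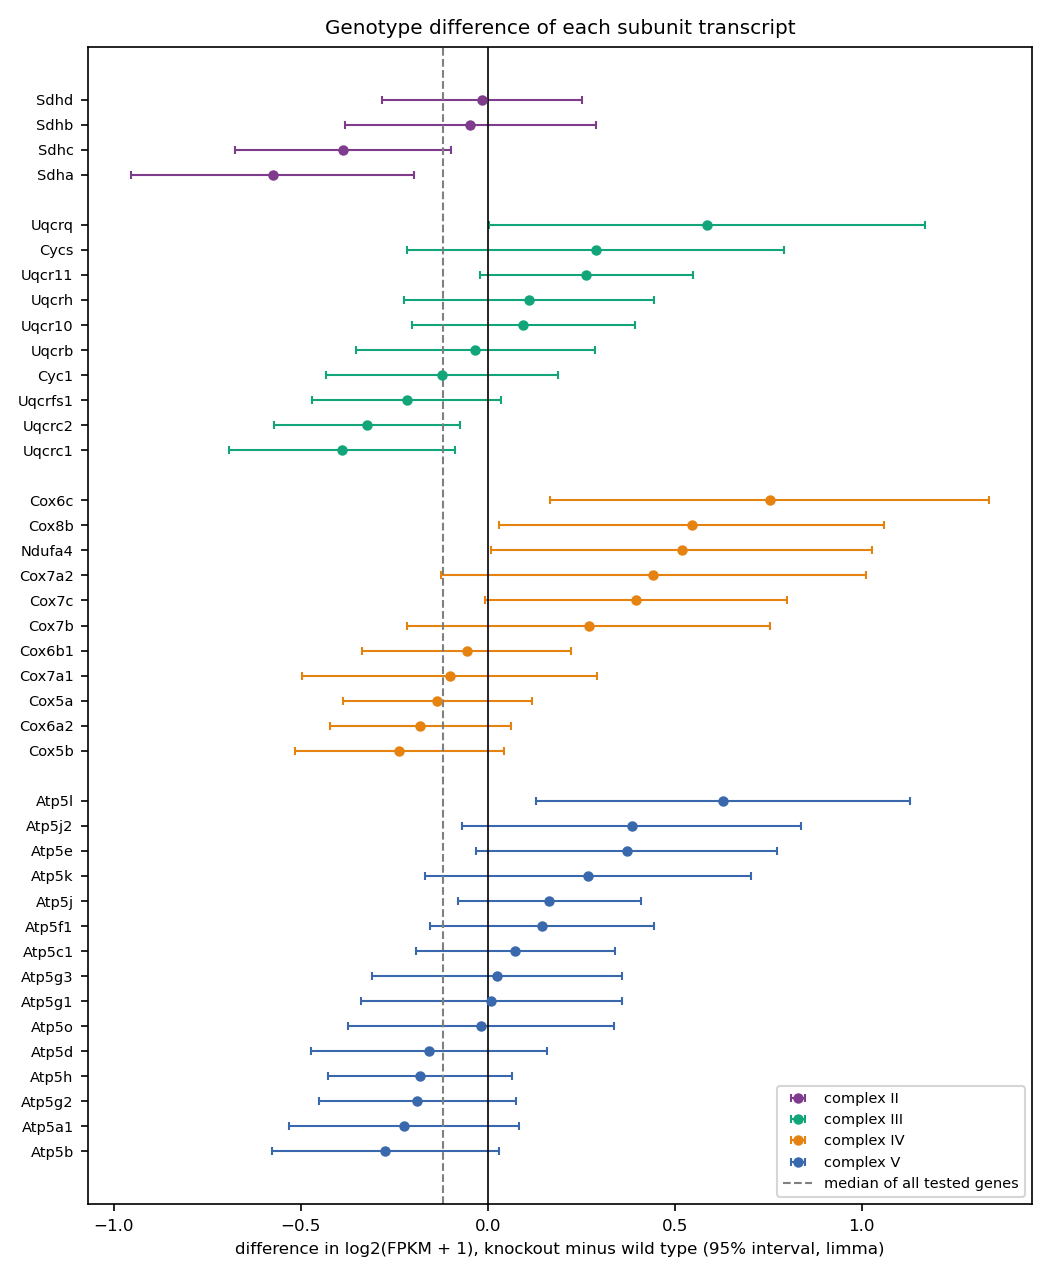
Difference in log2(FPKM + 1), knockout minus wild type, of each of the 40 subunit transcripts, with 95% intervals from limma, grouped by complex. The solid line marks 0 and the dashed line the median of all tested genes at -0.12. Intervals that leave out 0 belong to Sdha, Sdhc, Uqcrc1 and Uqcrc2 on the lower side and to Cox6c, Cox8b, Ndufa4, Uqcrq and Atp5l on the higher side.

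Muscle-specific and general isoforms of complex IV were compared within each mouse. Cox7a1, the heart and muscle form of subunit 7a, stood at 1500.4, 1492, 1624 and 2099 FPKM in knockouts and 1760.5, 2160.1, 1375 and 1936 FPKM in wild type. Cox7a2, the form found in most tissues, stood at 1163, 1572, 1481 and 1562 FPKM in knockouts and 1243, 1285, 615 and 1260.0 FPKM in wild type, with WT3 far below the rest (difference 0.44, and 0.18 without WT3). Each gene overlapped between the genotypes, but their ratio did not. Cox7a1 per Cox7a2 was 1.29, 0.949, 1.10 and 1.34 in knockouts (1.17 ± 0.181, SD, n = 4), against 1.42, 1.68, 2.24 and 1.54 in wild type (1.72 ± 0.363, SD, n = 4). The highest knockout, KO8, and the lowest wild-type mouse, WT1, were close, and the highest ratio was that of WT3.

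Cox6a2, the muscle form of subunit 6a, stood at 1266, 1192, 1157 and 1033 FPKM in knockouts, against 1256, 1266, 1418 and 1320.1 FPKM in wild type (difference -0.18, SE 0.11). With median-ratio scaling the difference of Cox6a2 was -0.03, and after quantile normalization -0.40. Its general partner Cox6a1 stood at 74.0, 195, 58.6 and 57.9 FPKM in knockouts and 243, 48.8, 47.6 and 48.3 FPKM in wild type. Cox8a, the partner of Cox8b, stood at 103, 226, 95.1 and 81.2 FPKM in knockouts and 299, 73.7, 66.5 and 67.3 FPKM in wild type. Both general isoforms were highest in WT1 and KO6, the mice with raised adipocyte markers, and the part of fat tissue in these levels was not tested. Cox6a2 per Cox6a1 was 17.1, 6.12, 19.7 and 17.8 in knockouts and 5.16, 25.9, 29.8 and 27.3 in wild type, and Cox8b per Cox8a was 79.2, 23.0, 46.2 and 67.6 in knockouts and 12.5, 61.5, 42.4 and 70.3 in wild type. These ratios overlapped between the genotypes and were lowest in KO6 and WT1. Cox7a1 and Cox8b are also known from brown fat, whose defining marker Ucp1 was listed at 0 in 6 mice, at 2.92 FPKM in KO6 and at 1.37 FPKM in WT1.

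The members with higher and lower means differed in the length of their coding sequence. This split was chosen after the values were seen and has no test. Of the 20 members with at most 360 coding bases, 16 had higher means of log2(FPKM + 1) in knockouts, with a median difference of 0.28. Of the 20 longer ones, 16 had lower means, with a median difference of -0.17. Over all tested genes, 7076 of 11118 had lower means, with a median of -0.12. Relative to that median the short-coding members stood at 0.40 and the longer ones at -0.05. Above it lay 19 of the short-coding members, and 13 of the 20 longer ones lay below it. Across the 40 members, which share the same 8 libraries, the difference ran with coding length at a Spearman rho of -0.74 (Pearson r -0.71 with log2 length). With the wild-type mean level the rho was 0.59. Complex I subunits had a rho of -0.62 with coding length over 36 genes.

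**Figure D3:**
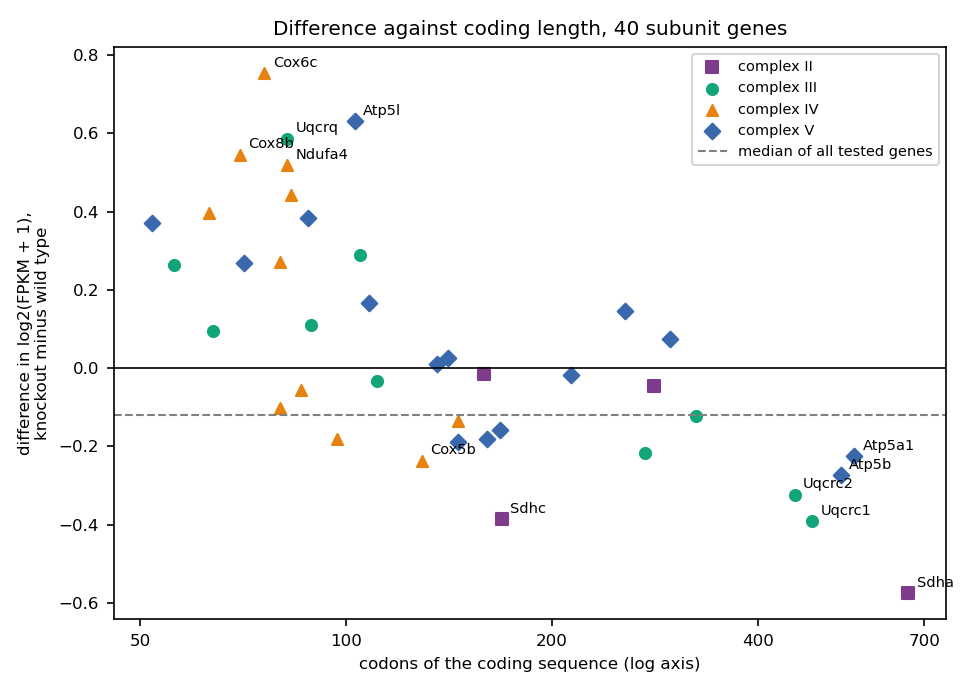
Difference in log2(FPKM + 1), knockout minus wild type, of the 40 subunit transcripts against the codons of their coding sequence (log axis), with complexes in different colours and markers. The longest, Sdha, lies lowest at -0.57, and the highest values, up to 0.75 in Cox6c, belong to subunits of 70 to 103 codons.

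The difference also varied with transcript length over all genes, though not evenly. The median difference of tested genes outside the members was 0.12 for 665 genes with transcripts of at most 500 bases (quartiles -0.88 and 0.92), 0.22 for 400 genes with transcripts of 500 to 800 bases, 0.12 for 796 genes of 800 to 1200 bases, and -0.17 for 7125 genes over 2000 bases. The members had a median difference of 0.27 among 6 transcripts of at most 500 bases, 0.026 among 13 of 500 to 800 bases, 0.074 among 7 of 800 to 1200 bases and -0.22 among 5 over 2000 bases. Between 1200 and 2000 bases the median difference was -0.035 for 1998 other genes and -0.16 for 9 members. Over 11024 tested genes with an annotated length the rho with transcript length was -0.28, and over the 40 members it was -0.46. A loess trend on length and GC percent was then removed in each mouse. After that removal the short-coding members had a median difference of 0.12 and the longer ones -0.16. The members' rho with transcript length was then -0.17. Their rho with coding length, -0.74 as deposited, was then -0.54. With the unadjusted limit of 0.05, 0 members were higher in that fit and 3 were lower, against 536 and 537 of all tested genes. Median-ratio scaling gave medians of 0.43 and -0.02, quantile normalization 0.17 and -0.34, and leaving out WT3 0.14 and -0.19. With median-ratio scaling 11 of the 20 longer members stood lower.

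WT3 had the lowest values in many members. It was the lowest of the 8 mice in 17 of the 20 short-coding members and in 3 of the 20 longer ones. Relative to all tested genes of the same mouse, the median deviation of the short-coding members was 0.16, 0.01, 0.08 and 0.58 in knockouts, against -0.15, 0.10, -0.85 and 0.07 in wild type. For the longer members it was 0.07, -0.22, -0.11 and 0.19 in knockouts and 0.03, 0.08, -0.16 and 0.19 in wild type. Other tested genes with transcripts of at most 800 bases gave -0.10, -0.05, -0.08 and 0.15 in knockouts and -0.13, -0.07, -0.64 and -0.35 in wild type, so WT3 was lowest there as well. The gap between short-coding and longer members was 0.09, 0.24, 0.20 and 0.39 in knockouts and -0.18, 0.02, -0.69 and -0.12 in wild type, without overlap. The split was chosen after these values were seen, so this separation is not independent of them. Taken alone, the deviations of the short-coding members and those of the longer ones each overlapped between the genotypes. WT3 had depth 1.23 relative to WT2, and its part in these values is measured only by the values without it.

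**Figure D4:**
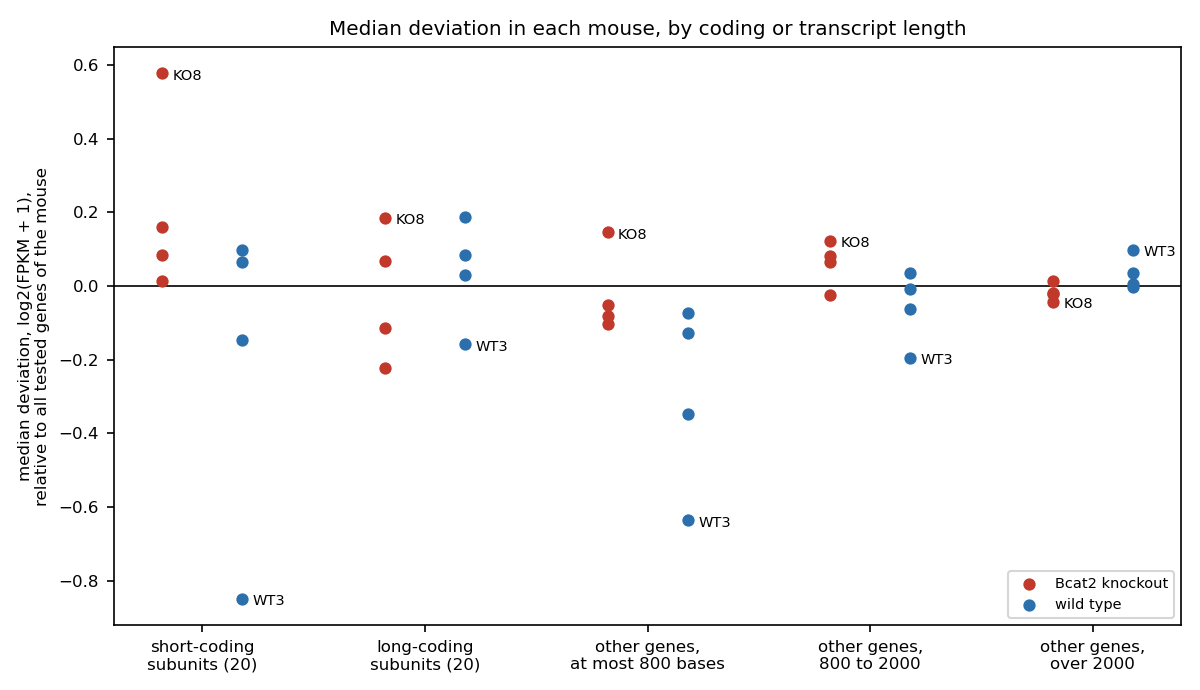
Median deviation of log2(FPKM + 1) from the mean of the 8 mice, relative to all tested genes of the mouse, in 4 knockouts (red) and 4 wild-type mice (blue), for the 20 short-coding and 20 longer subunits and for other tested genes by transcript length in bases. WT3 is lowest among the short-coding subunits at -0.85 and among other short transcripts at -0.64, and KO8 is highest at 0.58 and 0.15.

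Sums over a complex weight its most abundant members. Complex III summed to 13171, 10991, 10370.0 and 12036 FPKM in knockouts and 10779.8, 10642, 7649.5 and 10682 FPKM in wild type, and Uqcrq made up 36.7% of its mean. Complex IV summed to 42751, 41467, 39836 and 44369.6 FPKM in knockouts and 33991, 37651, 21838 and 39833 FPKM in wild type, and Cox7b made up 36.1%. Complex V summed to 20945, 19556, 17357 and 19645 FPKM in knockouts and 18758, 18258, 14259.9 and 19338 FPKM in wild type. The genotypes overlapped in complexes III and V. In complex IV, KO7 lay just above WT4, and WT3 was the lowest mouse. All 40 members together took 9.19 ± 0.806% of the library's FPKM in knockouts and 8.16 ± 1.08% in wild type (SD, n = 4 each). These shares overlapped, at 8.36 to 10.15% in knockouts and 6.55 to 8.89% in wild type, with WT3 lowest.

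Promoters are shown for 3 members whose genotypes did not overlap and whose upstream sequence holds a motif of a known regulator of respiratory genes. NRF1 and GABP (also called NRF2) are transcription factors known to act on many of these genes. The 250 bases upstream of the annotated start were taken from RefSeq's annotation (GRCm38.p6, the same build as mm10) for 31 of the 40 members and searched on both strands. For Sdha and Uqcr11 that start lies inside the span of the deposited gene. The NRF1 motif, GCGCA and GCGC with any base between them, was found in 5 of 31 members and in 3.74% of 32851 promoters in the table. The GABP motif CCGGAAG was found in 7 of 31 members and in 6.91% of all promoters. TNAAGGTCA, a motif of the ERR receptors, was found in 1 of 31 members and in 1.14% of all promoters, and AAGATGGCG, a motif of YY1, in 0 of 31 members and in 0.606% of all promoters. No motif overlapped another in the 3 promoters printed. Capitals mark the NRF1 matches in Sdha and the GABP matches in Uqcr11 and Atp5l.
Sdha (chr13:74350241-74350490, minus strand): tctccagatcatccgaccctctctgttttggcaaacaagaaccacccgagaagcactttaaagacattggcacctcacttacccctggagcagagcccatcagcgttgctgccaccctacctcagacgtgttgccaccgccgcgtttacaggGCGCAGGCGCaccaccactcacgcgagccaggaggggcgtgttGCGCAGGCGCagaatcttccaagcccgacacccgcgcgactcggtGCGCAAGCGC
Uqcr11 (chr10:80406822-80407071, minus strand): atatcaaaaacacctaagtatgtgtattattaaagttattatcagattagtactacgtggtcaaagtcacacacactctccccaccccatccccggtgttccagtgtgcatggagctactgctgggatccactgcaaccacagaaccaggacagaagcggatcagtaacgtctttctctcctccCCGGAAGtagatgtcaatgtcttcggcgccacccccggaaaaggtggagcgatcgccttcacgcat
Atp5l (chr9:44920743-44920992, minus strand): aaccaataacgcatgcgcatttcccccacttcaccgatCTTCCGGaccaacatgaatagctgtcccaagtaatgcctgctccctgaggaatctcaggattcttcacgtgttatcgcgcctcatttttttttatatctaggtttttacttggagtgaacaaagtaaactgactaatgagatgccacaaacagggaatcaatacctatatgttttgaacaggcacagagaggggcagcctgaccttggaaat
The NRF1 motif was in the promoters of Sdha, Sdhd, Atp5g2, Atp5h and Atp5k, whose differences ran from -0.57 to 0.27. The GABP motif was in those of Sdhd, Uqcrh, Uqcr11, Cox6b1, Atp5e, Atp5h and Atp5l, with differences from -0.18 to 0.63. With the NRF1 motif only Atp5k had a higher mean in knockouts, and its difference was 0.089 without WT3. With the GABP motif Sdhd, Cox6b1 and Atp5h had lower means and the others had higher ones. A relation of motif and direction was not tested. A match is a run of letters and not a measured binding site.

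Many subunit genes have processed copies elsewhere in the genome, and per the labels' protocols the reads of 50 cycles entered the FPKM only where they mapped uniquely. In 8 of the 40 members more than 20% of the 50-base windows of the annotated transcript were also present in a transcript of another, non-overlapping gene. That share was 87.4% for Atp5g2, 68.5% for Atp5l, 53.0% for Cox7c, 47.9% for Atp5h and 43.2% for Uqcrb. For Cycs it was 28.5%, for Cox5b 25.9% and for Atp5f1 23.2%. The FPKM of these 8 members rest on the other windows and are uncertain. The share was 13.9% for Cox6c and 10.9% for Uqcr11. No such window was found for Sdha, Uqcrc1, Uqcrq, Cox8b, Cox7a1, Cox7a2 or Ndufa4. Exons of 9 members overlap a gene on the opposite strand: Uqcrc2, Uqcrb, Cox5a, Cox6a2, Atp5a1, Atp5f1, Atp5l, Atp5j and Atp5o. Those of Atp5o, deposited with the span 91684398 to 91931687 on chromosome 16, also overlap another annotated gene of the same name on the same strand. Reads of that stretch cannot be told apart.

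Other genes of the same system were taken from lists of known members, and none of them passed the threshold. Among 9 tested further subunits and isoforms, 1 had an unadjusted p under 0.05, on the higher side, where 2.99% of all tested genes did. It was Usmg5, a small membrane subunit of ATP synthase, at 4450.2, 3897, 4909 and 6031 FPKM in knockouts and 3203, 4134, 1496 and 3536 FPKM in wild type (difference 0.72, limma adjusted p = 0.481). Without WT3 its difference was 0.40. Of 31 tested assembly factors, 15 had higher and 16 had lower means in knockouts, where 4042 and 7076 of all 11118 tested genes did. The assembly factors with higher means include Surf1 and Cox20, listed at 0 in every mouse but KO8, where they stood at 27.1 and 40.3 FPKM. These genes passed the filter on mean level through KO8 alone. With the unadjusted limit, 6 of the 31 were higher and 6 were lower, against 2.99% and 7.33% of all tested genes. Taco1, which helps translate a mitochondrial subunit of complex IV, stood at 13.2, 13.1, 18.8 and 12.2 FPKM in knockouts and 21.8, 17.9, 27.7 and 24.8 FPKM in wild type (difference -0.65, limma adjusted p = 0.48). Only KO7 reached the wild-type range.

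Complex I subunits, which feed electrons from NADH into the same chain, had higher means in knockouts in 22 of 36 genes and lower means in 14. Over all tested genes, 4042 of 11118 had higher means and 7076 had lower ones. With the unadjusted limit, 6 of the 36 were higher and 4 were lower, against 2.99% and 7.33% of all tested genes. Their median relative to all tested genes was 0.19 as deposited, -0.027 after quantile normalization and -0.084 after removal of the length and GC trend. Ndufs1, its largest subunit, stood at 112, 113, 117 and 96.7 FPKM in knockouts and 149.6, 132, 173 and 160.2 FPKM in wild type, without overlap (difference -0.48, limma adjusted p = 0.48). Of 12 tested regulators of mitochondrial genes, 3 had higher and 9 had lower means, where 7076 of all 11118 tested genes had lower ones. The median of the regulators relative to all tested genes was 0.0051. Gabpa, a gene of the factor GABP, was listed at 0 in every mouse and was not among those tested. Its exons overlap those of Atp5j on the opposite strand. With the unadjusted limit 0 of the 12 were higher and 1 was lower, against the same shares of all tested genes. Ppargc1a, the coactivator PGC-1 alpha, stood at 2.92, 2.43, 2.98 and 2.99 FPKM in knockouts and 3.00, 3.64, 4.55 and 4.37 FPKM in wild type, without overlap but with KO8 and WT1 nearly equal (difference -0.34, limma adjusted p = 0.484). Of 17 channels, carriers and membrane-shaping proteins of mitochondria, 5 had higher and 12 had lower means, with a median of -0.13 relative to all tested genes. With the unadjusted limit 1 of the 17 was higher and 6 were lower, where 2.99% and 7.33% of all tested genes were. Tomm20, a receptor for imported proteins, stood at 35.8, 28.1, 21.4 and 24.7 FPKM in knockouts and 19.7, 21.0, 13.7 and 18.8 FPKM in wild type, without overlap (difference 0.55, limma adjusted p = 0.48).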

How the data were processed

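Gastrocnemius RNA of 4 knockout and 4 wild-type mice was made into unstranded TruSeq libraries and read in single 50-base reads. Per the labels' protocols, the authors aligned reads to mm10 with TopHat 2.0.9 and computed the deposited FPKM from uniquely mapped reads with Cufflinks 2.0.2. Cufflinks is 2.2.1 in the submitters' processing notes, which also list CASAVA 1.8.2. For annotation and strand setting the sources used here give nothing. Positions are the deposited start plus 1. Knockout columns are numbered 5 to 8, so they were used as replicates without a labelled number.

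FPKM carry no read counts, so counting intervals were not computed, and relative depth was read from the steps between low values. Genes with a mean of at least 1 FPKM (11118) were tested as log2(FPKM + 1) with limma-trend 3.58.1 in R 4.3.3, knockout minus wild type, with Benjamini-Hochberg adjustment. Values of 1 gene were also compared with a two-sided exact permutation test over the 70 labelled splits. P-values measure the spread between these mice. The fit was tested on simulated data. Alternatives were other pseudocounts (0.1 and 0.5), filters, median-ratio and quantile scaling, leaving out each mouse or both WT1 and KO6, mouse weights, robust variance, summed symbols, missing zeros and removal of a loess trend (span 0.5) on transcript length and GC percent, taken from GENCODE vM21 for 11023 genes. The authors' deposited flags mark genes at p-value limits of 0.05 and 0.001, by a test that the sources used here do not name.

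The members and gene lists were chosen with earlier results of these data known. Named with values per mouse were all complex II members, the 3 highest and 3 lowest differences of each other complex, Cycs, muscle isoforms with their partners, the c-subunit genes, and from each other list the called genes, at most 4, or else that with the smallest p.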

Additional observations from a re-analysis of the deposited data

Results flagged for a closer look

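Within each genotype, the mouse farthest from the rest was checked by its gap to the nearest other mouse, as a share of the range of the 4 mice, in 82 groups of values. In 12 groups this share was above Dixon's critical value for 4 samples. Chance passes that limit in about 1 group in 20.

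WT3 was set apart on the low side in 4 members. The share was 0.939 for Uqcrq, where WT3 stood at 1924 FPKM, and 0.938 for Cox7a2, where it stood at 615 FPKM. It was 0.914 for Cox6c, where WT3 stood at 2614 FPKM, and 0.834 for Atp5j2, where it stood at 1016 FPKM. Cox6c had a second such group, the knockouts, in which KO8 stood high at 9339 FPKM with a share of 0.873.

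The general isoforms of complex IV were set apart in the mice with raised adipocyte markers. For Cox6a1 the share was 0.883 in knockouts, with KO6 at 195 FPKM, and 0.994 in wild type, with WT1 at 243 FPKM. For Cox8a it was 0.849 in knockouts, with KO6 at 226 FPKM, and 0.969 in wild type, with WT1 at 299 FPKM. Bcat2 stood high in WT1 at 83.0 FPKM with a share of 0.885 in wild type. Outside the subunits, KO7 stood high in the assembly factor Taco1 at 18.8 FPKM (0.849), and KO6 stood low in Ppargc1a at 2.43 FPKM (0.875).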

How the results depend on the processing

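No member passed the adjusted threshold in any of the 20 alternatives, and the smallest adjusted p of any member ran from 0.377 to 0.854. Over all tested genes 3 passed as deposited, 11 without WT1 and KO6, 1 with zeros set to missing and 4 to 9 with 1 mouse left out. Members higher at an unadjusted p under 0.05 numbered 5 as deposited, 3 with median-ratio scaling, 2 after quantile normalization, 2 with no filter on low values, 2 with mouse weights, 0 without WT1 and KO6, 0 after removal of the length and GC trend, and 1 to 6 with 1 mouse left out. Members lower numbered 4 as deposited, 1 with median-ratio scaling, 12 after quantile normalization and 4 to 7 with 1 mouse left out. All tested genes at that p numbered 1147 as deposited and 597 to 1420 with 1 mouse left out. Relative to all tested genes, quantile normalization moved the median difference to -0.38 in complex II, -0.13 in complex III, -0.16 in complex V and -0.30 in the longer-coding members. Removal of the length and GC trend moved it to -0.083 in complex III and to -0.084 in complex I. Of the 40 members, signs turned in 8 with median-ratio scaling, 7 after quantile normalization, 4 after removal of the trend and 2 without WT3. Among genes named with values per mouse, signs turned for Sdhb (0.10), Sdhd (0.14), Cox5a (0.016) and Cox7a1 (0.049) with median-ratio scaling, for Atp5g1 (-0.20) and Atp5g3 (-0.16) after quantile normalization, for Sdhb (0.00092) and Sdhd (0.0094) without WT1 and KO6, and for Atp5g3 (-0.12) after removal of the trend. With 1 mouse left out, differences ran from -0.13 to 0.030 in Sdhb, from -0.076 to 0.031 in Sdhd, from -0.12 to 0.082 in Atp5g1, from -0.072 to 0.10 in Atp5g3, from -0.20 to 0.78 in Cox6a1 and from -0.11 to 0.74 in Cox8a. The causes of these changes were not tested. No paired analysis was possible because the knockout columns carry numbers that do not match the labelled replicates. FPKM give no counts, so the precision of each value is unknown beyond the spread of 4 mice per genotype.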
